A study of Mus musculus with 132 samples.

Results

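Open chromatin of wild-type Flk1+ mesoderm was mapped by ATAC-seq, in which a transposase cuts accessible DNA, and 36422 of its 76766 peaks (47.4%) formed the mesoderm-only distal sites without CTCF. A site had to share no base with the 29037 ATAC-seq peaks of CD41+ hematopoietic progenitor cells (HPCs) or with the 44513 CTCF ChIP-seq peaks of 416B cells, a mouse myeloid progenitor line. Its midpoint also had to lie over 5 kb from every gene start. The overlap with HPC peaks left 56952 mesoderm peaks, the overlap with CTCF peaks left 47846, and the distance left the 36422 sites. No measured height entered this choice, as the peak lists hold positions alone.

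Mesoderm and HPCs came from in vitro differentiation of mouse embryonic stem cells (mESCs) of the E14-TG2a line, sampled at day 0 (undifferentiated), day 4 (Flk1+ mesoderm) and day 7 (CD41+ HPCs). Expression of the nearest genes was read from 23 poly(A)-minus RNA-seq libraries, which also hold nascent transcripts. The wild-type libraries were 2 of undifferentiated mESCs, labelled technical replicates, 3 of mesoderm (1 for each of the clones C6.1, C8.1 and B9.3) and 4 of HPCs (these clones again, with a pair of libraries, B9.3 and B9.3-2, from the last). P1-CTCF-KO clones (E7.1, E7.2 and E9.1), which lack a CTCF site at the distal promoter of Runx1, had 3 libraries at each of days 4 and 7, and P2-CTCF-KO clones (D2.1, D10.1 and E9.1), which lack a CTCF site at its proximal promoter, had 3 and 5. According to the Methods, ATAC-seq was done on an E14-TG2a derivative with a Venus reporter at Runx1 and a transgene of the Runx1 +23 enhancer. The mesoderm peaks were called on the merged reads of 4 libraries and the HPC peaks on those of 2, so a site has no replicate, and its absence from the shorter HPC list does not show that it had closed. The CTCF peaks stem from a cell type that is neither mesoderm nor HPC, and CTCF in mesoderm was not measured.

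Distal open sites are in large part enhancers, stretches of DNA where transcription factors bind and act on a gene start that can lie far away. Flk1, encoded by Kdr, is the VEGF receptor that marks the mesoderm from which endothelial and blood cells arise. Cells of this stage are known to express T-box factors of the primitive streak, GATA and forkhead factors of the lateral plate and cardiac lineages, and the ETS and bHLH factors that start the endothelial and blood programs. CD41+ HPCs come from hemogenic endothelium and depend on RUNX1, ETS factors and the TAL1-GATA complex. CTCF marks chromatin boundaries, and the sites described here lie outside its 416B peaks.

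The letters of the sites carry the binding motifs described below, so 9 sites are printed as examples, each a window of 200 bp centred on the peak's midpoint. They are, for each gene, the site within 100 kb of its start with the most motif matches, so their motif content follows from the choice. The same rule also picked windows near Aplnr, Furin, Sdk2 and Tal1, which are not printed. The sequences are those of the NCBIM37 (mm9) genome, plus strand, and capitals mark GATAA (GATA factors), GGAATG (TEAD factors), GGTGTGA (T-box factors) and TGTTTAC (forkhead factors), in either orientation. Positions against genes follow the GENCODE vM1 annotation. The window near Amot lies between genes at chrX:141992547-141992746, 70465 bp from the start of Amot, and that of Kcnq5 between genes at chr1:22037858-22038057, 85227 bp away. The Kdm6b window lies in an intron of Dnahc2 at chr11:69250901-69251100, and those of Prkd1 (chr12:51725209-51725408) and Runx1 (chr16:92785235-92785434) lie in introns of the gene itself. The Zfp703 window (chr8:28082020-28082219) is 5687 bp and the Kdr window (chr5:76409035-76409234) 34655 bp from its gene's start, both between genes. The Rspo3 window (chr10:29246309-29246508) lies in an intron of Rspo3, 9264 bp from its start, and holds none of the 4 patterns in capitals. The Fgd5 window (chr6:91964991-91965190) lies in introns of 4930466I24Rik and Fgd5, 36133 bp from the start of Fgd5, and holds forkhead letters but no GATAA.
Amot: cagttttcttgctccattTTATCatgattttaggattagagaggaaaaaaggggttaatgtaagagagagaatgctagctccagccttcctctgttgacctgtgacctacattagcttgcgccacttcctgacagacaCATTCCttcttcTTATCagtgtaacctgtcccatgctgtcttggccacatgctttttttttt
Kcnq5: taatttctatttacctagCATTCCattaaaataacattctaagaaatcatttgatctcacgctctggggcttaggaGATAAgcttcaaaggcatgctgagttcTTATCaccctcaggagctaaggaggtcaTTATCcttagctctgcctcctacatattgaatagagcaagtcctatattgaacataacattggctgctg
Kdm6b: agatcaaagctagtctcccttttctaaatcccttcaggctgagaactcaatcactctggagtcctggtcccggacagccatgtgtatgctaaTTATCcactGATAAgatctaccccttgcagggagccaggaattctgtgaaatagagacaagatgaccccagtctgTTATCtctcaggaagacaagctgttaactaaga
Prkd1: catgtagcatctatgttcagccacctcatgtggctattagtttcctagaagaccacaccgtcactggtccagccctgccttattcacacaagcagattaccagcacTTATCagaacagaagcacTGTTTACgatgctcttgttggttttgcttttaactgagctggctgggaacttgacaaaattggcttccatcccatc
Zfp703: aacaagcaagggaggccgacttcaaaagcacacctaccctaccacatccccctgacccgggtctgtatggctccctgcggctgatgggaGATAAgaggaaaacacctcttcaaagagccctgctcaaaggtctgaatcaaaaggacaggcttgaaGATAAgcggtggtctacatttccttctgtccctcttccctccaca
Kdr: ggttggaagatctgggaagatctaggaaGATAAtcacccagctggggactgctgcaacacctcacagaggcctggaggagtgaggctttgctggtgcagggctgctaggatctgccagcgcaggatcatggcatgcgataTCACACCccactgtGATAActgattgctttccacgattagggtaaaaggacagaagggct
Rspo3: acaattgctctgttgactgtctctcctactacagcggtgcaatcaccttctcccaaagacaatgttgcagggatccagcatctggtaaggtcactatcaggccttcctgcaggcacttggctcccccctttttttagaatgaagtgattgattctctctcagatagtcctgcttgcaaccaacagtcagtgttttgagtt
Fgd5: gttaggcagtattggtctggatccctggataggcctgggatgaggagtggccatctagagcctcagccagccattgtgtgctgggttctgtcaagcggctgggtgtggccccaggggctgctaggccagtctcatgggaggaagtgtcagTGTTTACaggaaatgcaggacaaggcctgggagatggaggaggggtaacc
Runx1: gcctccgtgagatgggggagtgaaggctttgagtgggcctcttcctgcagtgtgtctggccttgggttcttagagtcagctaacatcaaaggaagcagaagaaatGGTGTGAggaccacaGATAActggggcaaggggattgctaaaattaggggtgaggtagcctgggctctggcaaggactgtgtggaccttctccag

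GATA letters, the shortest of the 20 patterns searched, were the most frequent of them both in the sites and in their flanks. GATAA lay in 39.1% of the 36422 windows of 200 bp (95% Wilson interval 38.6 to 39.6%) and in 28.4% of windows 2 kb to either side, a ratio of 1.38. The Kcnq5 and Kdm6b windows above hold 3 copies each. The ETS letters AGGAAG lay in 33.0% of sites and 22.6% of flanks. TEAD letters, bound by the factors of the Hippo pathway, were present in 21.7% against 10.9%, a ratio of 2.0. T-box letters, as bound by Brachyury and Eomes, were less common but also more frequent in the sites (5.33% against 2.73%), and so were forkhead letters (5.76% against 2.97%). Of the E-boxes, which bHLH factors such as TAL1 bind, CAGCTG was present in 16.6% of sites and 8.43% of flanks, and CATCTG in 20.2% and 15.4%. The composite of TAL1 and GATA factors, CTG followed after 8 or 9 bases by GATAA, had the largest ratio of the 20 patterns, 3.37, at 3.89% against 1.15%. It overlaps the GATA count by construction. MEIS letters (TGACAG) reached 21.1% against 13.2%, LEF and TCF letters (CTTTGAT) 5.41% against 3.71%, AP-1 letters (TGANTCA) 8.74% against 6.11%, and nuclear receptor letters (TGACCT) 14.8% against 11.9%.

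Other patterns, apart from the CTCF core, were little more frequent in the sites than beside them, or less frequent. RUNX letters (TGTGGT) lay in 15.6% of sites and 14.2% of flanks. SOX letters (ACAATG) were found in 9.86% and 11.8%, the POU octamer (TTTGCAT) in 4.02% and 4.46%, and FOXH1 letters (TGTGGATT) in 0.78% and 0.92%. Letters of CDX and posterior HOX factors (TTTATG, 7.87% against 14.3%), CATATG (2.44% against 5.92%) and CAGGTG (9.33% against 12.9%) were less frequent in the sites. The sites had a median GC content of 50.5% and their flanks 43.5%, and the part of base composition in each ratio was not tested. The CTCF core (CAGNGGGC) lay in 5.25% of the sites against 2.52% of flanks, although every site lay outside the 416B peaks. Of the 20 ratios, only that of the TAL1-GATA composite exceeded this one, 2.08. Of the 7152 mesoderm-only distal sites inside the 416B peaks, 18.8% held the CTCF core. At least 1 of the 20 patterns was present in all but 2338 sites (6.42%). Each share is a description of letters and was compared without a test.

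The mix of letters differed from that of the other distal classes without CTCF. In the 6825 HPC-only distal sites, ETS letters reached 61.8% and RUNX letters 35.4%, whereas GATAA (28.9%) was as frequent as in their flanks (29.0%). TEAD letters lay in 11.5% of HPC-only sites, T-box letters in 2.89%, forkhead letters in 2.75% and LEF letters in 2.01%, each about the share or less of their flanks (10.9, 2.59, 3.08 and 3.63%). The Wilson intervals of these 4 shares did not overlap those of the mesoderm-only sites. These intervals cover counting error over sites alone, and the sites of a class are not replicates. The peaks were called on merged reads, so the spread between cultures or between peak calls was not measured. Whether the classes differ beyond that spread was not tested. Distal sites open at both stages lay between the 2 classes for GATA (36.1%), ETS (45.9%), RUNX (20.2%) and TEAD letters (13.6%), but not for the TAL1-GATA composite, which was most frequent there (7.94%, against 3.89% of mesoderm-only and 4.84% of HPC-only sites). The composite's ratio to flanks was 7.18 in sites open at both stages.

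**Figure D1:**
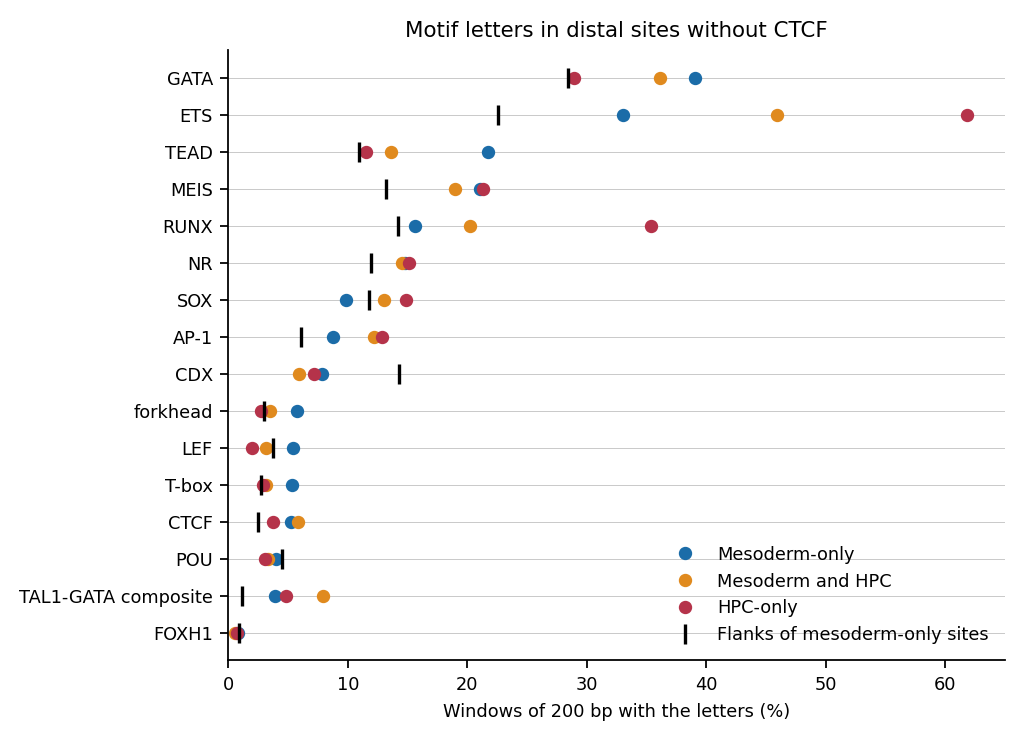
Percent of windows of 200 bp (x axis) that hold each of 16 motif letter patterns (y axis), for 36422 mesoderm-only, 6283 mesoderm-and-HPC and 6825 HPC-only distal sites without CTCF (points), with the flanks of mesoderm-only sites as black ticks. The 4 E-box patterns are not drawn. TEAD letters are at 21.7% in mesoderm-only sites and 11.5% in HPC-only sites, and RUNX letters at 15.6% and 35.4%.

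Matches of the 6 patterns plotted were concentrated at the midpoints. Their density per kb rose toward the midpoint, above flanks that were about level out to 1000 bp on either side. Patterns less frequent in the sites than in flanks, such as CATATG, were not plotted.

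**Figure D2:**
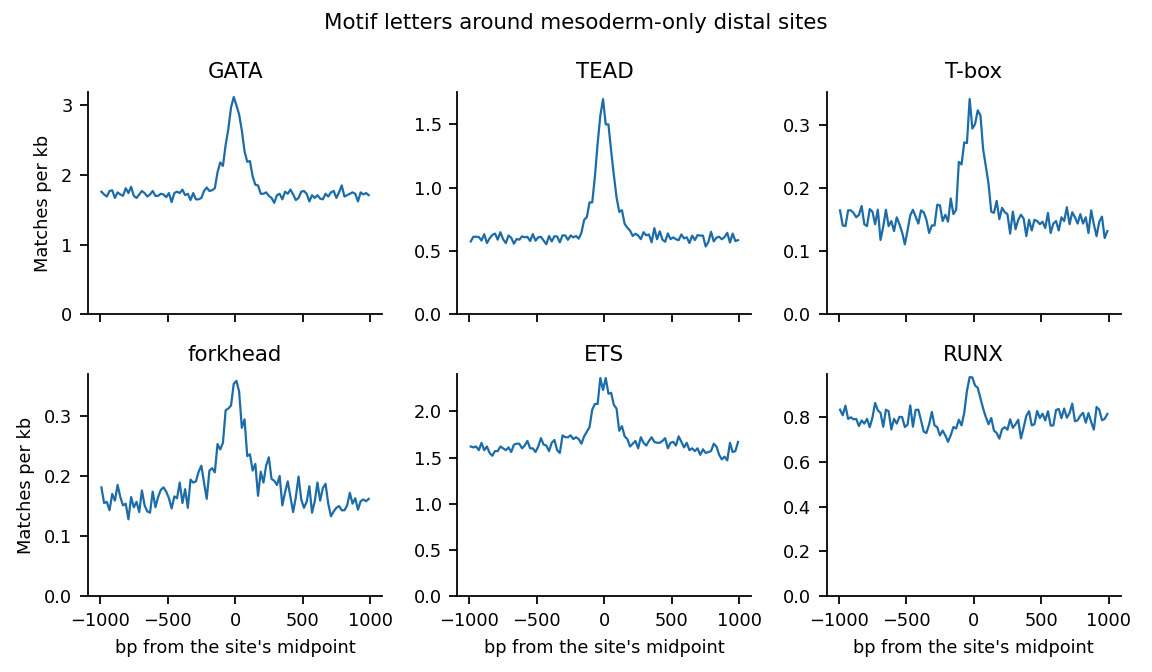
Matches per kb (y axis, from 0) of 6 motif letter patterns in bins of 20 bp against the distance from the site's midpoint in bp (x axis), over 36420 mesoderm-only distal sites. GATA, TEAD, T-box, forkhead and ETS letters have a peak at the midpoint above a level flank, and that of RUNX letters is low.

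The sites were narrow. Their median width was 99 bp (64 to 874), against 154 bp for distal sites without CTCF open at both stages and 97 bp for HPC-only ones. In the narrowest class of mesoderm peaks (64 to 70 bp), 62.8% were mesoderm-only distal sites and 6.97% overlapped an HPC peak, and in the widest (199 bp or more) these shares were 32% and 55.8%. Peak width follows signal strength in calls of this kind, and whether narrow peaks were missed more often in the HPC list was not tested. GATA letters rose with width, from 33.9% of the sites of 64 to 70 bp to 53.3% of those of 199 bp or more, and TEAD letters from 19.3% to 26.6%.

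**Figure D3:**
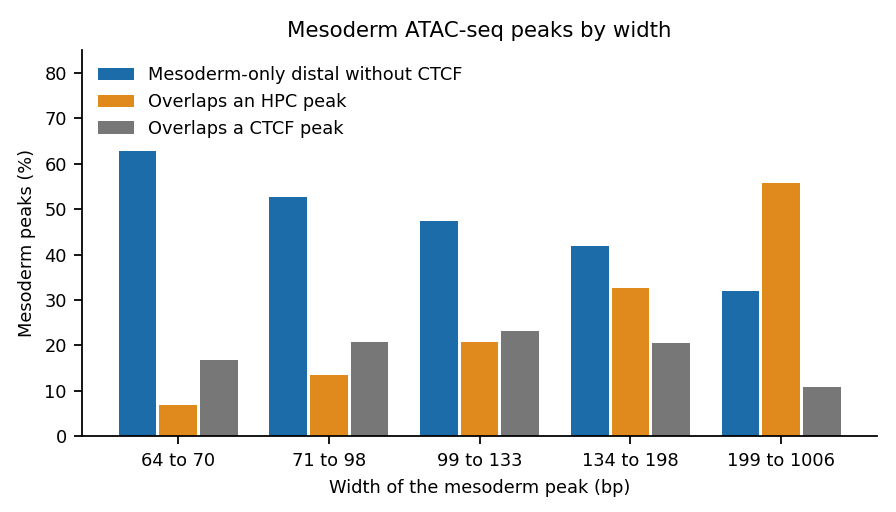
Percent of mesoderm ATAC-seq peaks (y axis, from 0) in each class of peak width in bp (x axis) that are mesoderm-only distal sites without CTCF, overlap an HPC peak or overlap a CTCF peak of 416B cells. Mesoderm-only distal sites make up 62.8% of the narrowest and 32% of the widest class.

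The sites lay far from gene starts, with a median distance of 53620 bp to the nearest, of which the rule sets the minimum of 5 kb. The distance was counted from 1 start per gene entry. Of the 36422 sites, 4622 lay within 5 kb of the start of some GENCODE vM1 transcript, such as an internal start. Within 100 kb of it lay 67.3%, and over 500 kb away 4.75%. Between genes lay 55.7% of the sites, 40.5% in introns and 3.8% in exons. Relative to the gene with the nearest start, 43.2% were upstream, 27.1% inside the gene and 29.8% past its end. The site nearest to the limit of 5 kb on the inside lay 5002 bp from Mustn1, the peak nearest to it on the outside 4999 bp from Zfp667, and 716 sites lay at 5 to 6 kb beside 673 otherwise eligible peaks at 4 to 5 kb. Density was 10.8 to 16.4 sites per Mb on the autosomes, 6.67 on X and 5.16 on Y. The central 32 bases occurred more than once in the genome for 4500 sites (12.4%), where reads cannot be placed with certainty.

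Some sites formed dense runs. With sites at most 12.5 kb apart joined, 53.6% of the sites stood alone, and 267 runs held 5 or more. The run with the most, 40 sites near Atg7 (chr6:114445081-114581579), consisted of copied sequence at every site. Among sites with a single-copy centre, the most in a run were 11 near Hunk (chr16:90400678-90452138, 51461 bp), 10 near Irf2bpl (chr12:88142206-88180958), 10 near Gm36283 (chr10:107865488-107909335) and 9 near Dusp6 (chr10:98732110-98761740). Dusp6, a phosphatase induced by FGF signalling that inactivates ERK, had 17 sites in all. Hand1, a bHLH factor of lateral and cardiac mesoderm, had a run of 7 single-copy sites 32629 to 53917 bp from its start (chr11:57678220-57699627).

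Each site was assigned to the gene with the nearest start, which gave 11296 genes, of which 4370 had 1 site, 2365 had 5 or more and 615 had 10 or more. Of them, 5925, which hold 19826 of the sites, passed the filter on low counts in the wild-type libraries and were tested with edgeR's quasi-likelihood test among 12899 genes. A gene was called at a Benjamini-Hochberg adjusted p under 0.05 with a log2 fold change beyond 1 in either direction. Nearest genes were more often higher in mesoderm than in undifferentiated mESCs: 938 were (15.8%), against 10.7% of all genes tested. Lower in mesoderm were 833 (14.1%, against 13.7% of all genes). From mesoderm to HPCs, 1050 nearest genes fell (17.7%, against 12.5% of all genes) and 767 rose (12.9%, against 10.8%). Both a rise into mesoderm and a fall into HPCs were called for 352 nearest genes, 5.94% of them, and for 3.88% of all genes.

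Limits of these counts lie in the libraries. Depletion of ribosomal RNA is described for the undifferentiated mESCs but not for the day 4 and day 7 cells, so stage and library preparation cannot be told apart in the mesoderm step. That step also rests on 1 undifferentiated culture: without either of its libraries, 5.53 to 6.34% of nearest genes were called higher and 4.64 to 5.03% lower. Of the genes described below, Efnb2, Smox, Prkca, T, Eomes, Wnt3, Nodal, Tbx20, Mef2c, Nrp1, Tek, Gata1, Meis1, Cbfb, Cdh2, Lef1, Axin2, Clic6 and Flrt3 lost their mesoderm call without either of them. The median log2 fold change of all genes in that step was -0.18, and 44.0% of all calls were higher. With the RLE scaling in edgeR these were -0.12 and 47.4%, and with DESeq2, which is another scaling and another test, 0.01 and 57.9%. DESeq2 called 16.6% of nearest genes higher and 8.56% lower. Total counts were 7805102 to 24406998 per library. Ribosomal entries and entries at several loci took 68.1 to 91% of them, which left 878966 to 7748567 counts for the other genes, and nearest genes with few counts could not be tested. The HPC library B9.3 held more RNA of some genes of the mesoderm stage than the other 3 (Nrp1 at 33.2 CPM, the count scaled to the library's size, against 1.06 to 2.13, Tbx20 at 19.2 against 0.531 to 0.862). Others, such as Tbx3, Lef1, Snai1, Eomes and T, had no count in it. The mesoderm library B9.3 held more endothelial RNA than the other 2 (Cdh5 at 37.1 CPM against 0.491 and 3.47). Without the HPC library B9.3, 20.4% of nearest genes were lower in HPCs, and without the mesoderm library B9.3, 16.8% were. The shares of all genes were not computed in the fits without a library or with DESeq2. Whether nearest genes were called more often than other genes there was not tested. In bulk libraries, fewer cells of a type and less RNA per cell cannot be told apart. Summed over the 9 mesoderm markers (among them Kdr, Hand1 and Foxf1), the level was 47.7 to 85 CPM in mesoderm, 3.72 to 18.1 in HPCs and 0.505 to 0.752 in undifferentiated mESCs. Kdr, which encodes the sorted protein Flk1, alone was at 51.1, 36.2 and 22.7 CPM in the mesoderm libraries. In the HPC library C6.1 it was at 3.72 CPM, the lowest HPC sum. Much of the mesoderm sum thus follows from the gate, and the sum does not test cell identity apart from the sort. The neural and endoderm markers summed to at most 2.04 CPM in mesoderm.

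The shares of genes higher in mesoderm and lower in HPCs were larger at more sites. Those of the opposite directions showed no such order over genes of all lengths. Of genes with no site, 6.08% were higher in mesoderm than in undifferentiated mESCs, of those with 1 site 10.7%, with 2 to 3 sites 13.9%, with 4 to 9 sites 23.3% and with 10 or more 28.2%. The share lower in HPCs than in mesoderm was 8.15, 12.5, 16.0, 23.7 and 35.7% in the same order, and the median log2 fold change of this step went from 0.0 to -0.93. The share higher in HPCs was 9.12, 12.8, 13.1, 13.8 and 9.22%, and the share lower in mesoderm than in undifferentiated mESCs 13.5, 13.9, 15.2, 13.7 and 9.8%. Genes with more sites were longer (median span 17142 bp without a site, 129465 bp at 10 or more), and longer genes gather more counts where introns are counted. Within each of 4 equal classes of gene length, the share lower in HPCs was still larger at 4 or more sites than at none, with 22.7% against 6.65% in the shortest class and 29.3% against 15.5% in the longest. The share higher in mesoderm was 18.8% against 2.57% in the shortest class, and in the longest 29.3% at 4 or more sites, 19.3% at 1 to 3 and 20.0% at none. Genes with many sites of other distal classes without CTCF were also often higher in mesoderm. Of the 155 genes with 4 to 9 HPC-only distal sites, 32.9% were higher in mesoderm, and 33 were higher (21.3%) and 32 lower (20.6%) in HPCs. Of the 120 genes with 4 to 9 distal sites open at both stages, 31.7% were higher in mesoderm, and 30.0% lower and 15% higher in HPCs. The differences between these classes were not tested, and a gene can have sites of several classes. These shares do not show that a site acts on its nearest gene.

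**Figure D4:**
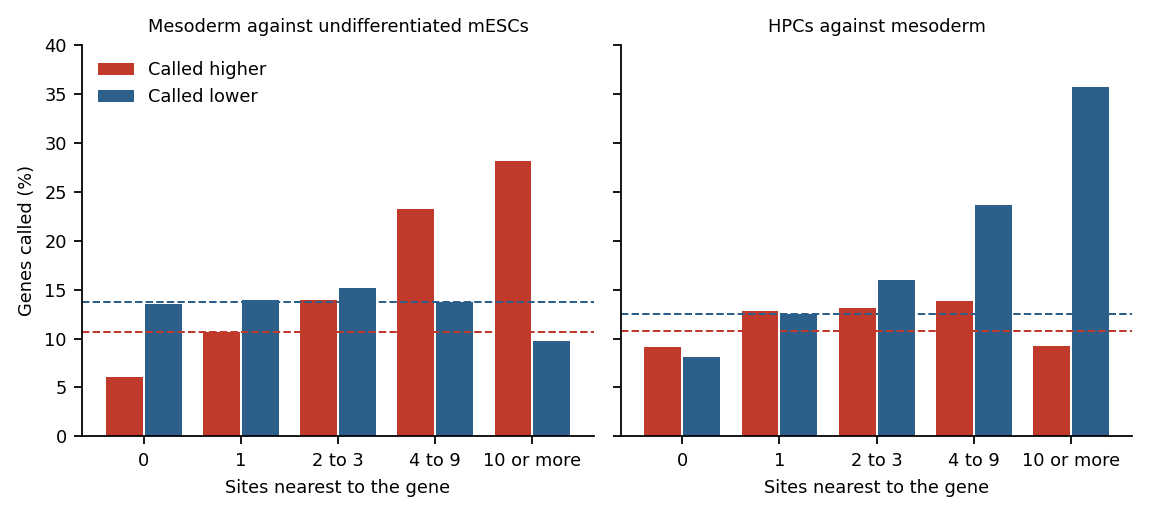
Percent of tested genes called higher or lower (y axis, from 0) by the number of mesoderm-only distal sites nearest to the gene (x axis), for wild-type mesoderm against undifferentiated mESCs (left) and HPCs against mesoderm (right), with dashed lines at the share of all 12899 genes. The share lower in HPCs goes from 8.15% of genes without a site to 35.7% of genes with 10 or more.

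Genes called higher in mesoderm and then lower in HPCs, with libraries that did not overlap at either step and 3 or more sites, numbered 211. They were 8.39% of the 2515 tested with 3 or more sites, and 3.44% of all genes tested met the same criteria. The 10 with the smallest adjusted p-values included a signalling ligand, a receptor, a chromatin enzyme and junction and cytoskeletal proteins. Rspo3, a secreted amplifier of Wnt signalling with 9 sites, was at 0.0885 and 0.0797 CPM in the 2 undifferentiated libraries, 9.17, 15.2 and 14 in mesoderm, and 0.463, 0.172, 0.0 and 0.224 in HPCs. Its log2 fold change was 7.16 ± 0.51 (SE, adjusted p = 1.77e-05) into mesoderm and -5.8 ± 0.44 (adjusted p = 1.52e-05) into HPCs. All mesoderm libraries lay above all others, as the choice of these genes required. Amot, a junction protein that binds YAP in the Hippo pathway, with 10 sites, went from 2.19 and 1.59 CPM to 41.6, 62.7 and 66.4 and back to 8.56, 7.24, 7.84 and 4.93. These are log2 changes of 4.9 ± 0.36 (adjusted p = 1.81e-05) and -2.99 ± 0.25 (adjusted p = 1.88e-05).

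Aplnr, the apelin receptor of migrating mesoderm and endothelium, had no count in undifferentiated mESCs, 14, 6.22 and 4.2 CPM in mesoderm and 0.231, 0.172, 0.0 and 0.0 in HPCs. Against the limit that 3 counts over the undifferentiated libraries allow (0.0142 CPM), it was at least 572-fold higher in mesoderm (adjusted p = 0.000106). Its 5 sites lay 5336 to 27339 bp from its start. Kdm6b, which removes the repressive mark H3K27me3, had 7 sites and was at 1.79 and 2.29 CPM, then 21.2, 22.4 and 21, then 6.48, 7.07, 7.57 and 8.3. Its mesoderm libraries differed little, and both steps were called (3.4 ± 0.24, adjusted p = 1.77e-05, and -1.55 ± 0.18, adjusted p = 0.000115). Zfp703, a zinc finger repressor, rose from 0.0148 and 0.0266 CPM to 4.63, 3.93 and 4.12 and fell to 0.347, 0.345, 0.133 and 0.336. Genes of this set with hardly a count at the other stages, such as Aplnr and Zfp703, passed the filter on low counts through mesoderm alone. Their directions thus follow from the filter. The others of the 10 were Fgd5, an endothelial exchange factor for Cdc42 (3.12 and -3.29 on the log2 scale at the 2 steps), Furin, a protease that matures growth factors (2.48 and -1.96), the kinase Prkd1 (3.29 and -2.63), the channel Kcnq5 (3.43 and -2.96) and the adhesion protein Sdk2 (5.28 and -5.06).

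**Figure D5:**
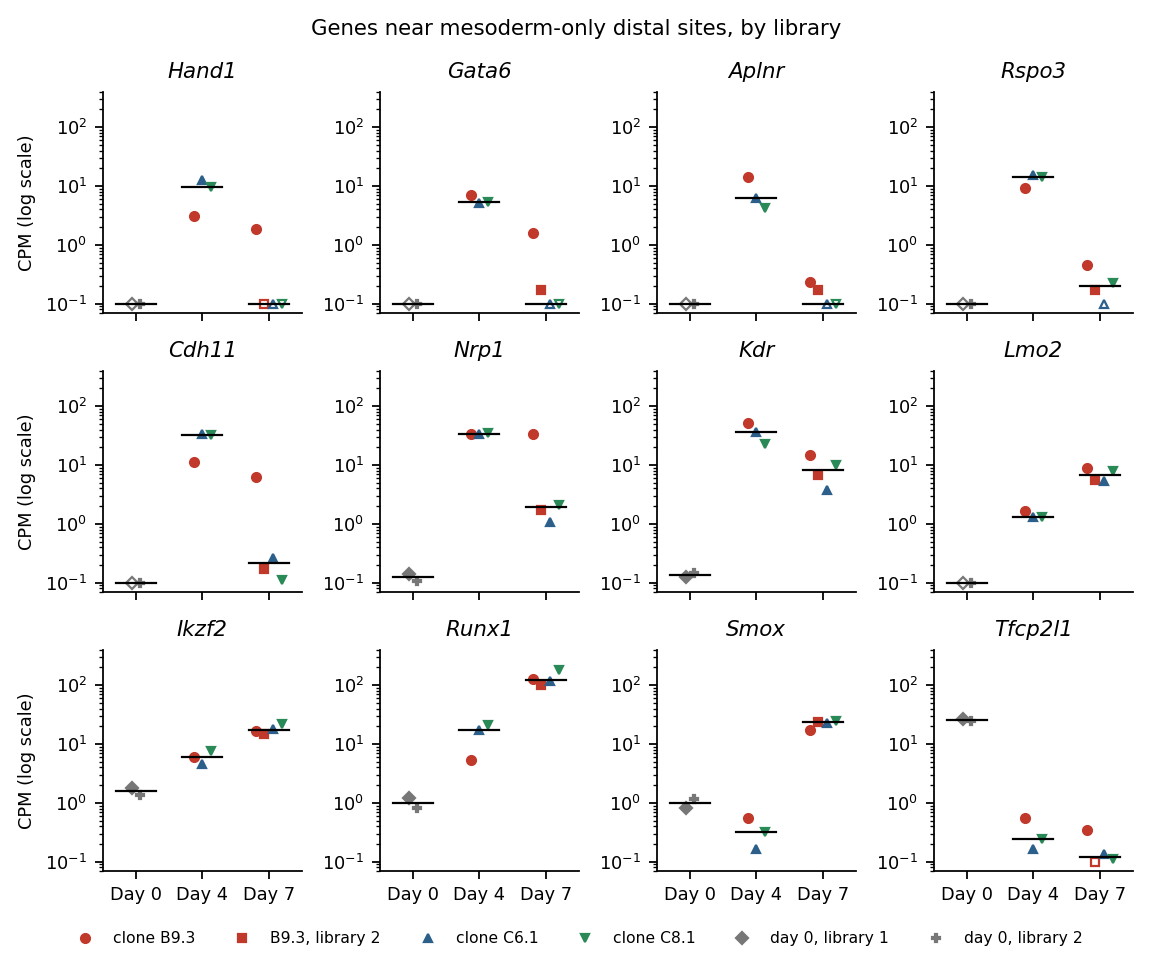
Level in CPM (log scale, y axis) of 12 genes near mesoderm-only distal sites in the wild-type libraries of day 0 (2), day 4 (3) and day 7 (4), with 1 symbol per library and a bar at the median. Values under 0.1 are drawn at 0.1. Rspo3 and Aplnr are highest in every mesoderm library, Runx1 and Smox in every HPC library, and the HPC library B9.3 lies far above the others for Nrp1 and Cdh11.

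Of the primitive streak genes that could be tested, 6 of 7 were higher in mesoderm, and the calls of Eomes, T and Wnt3 among them were lost without either undifferentiated library. Of the 22 genes of the list, 14 were nearest to 40 sites and 7 were tested. In mesoderm 6 were higher and 1 lower, against 10.7% and 13.7% of all genes (median log2 fold change 3.22, against -0.18 over all genes). All 7 were lower in HPCs, against 12.5% of all genes. Genes without a count in HPCs, such as Eomes and T, passed the filter on low counts through the earlier stages. Their fall thus follows in part from the filter. Eomes, the T-box factor that patterns the streak, had 2 sites 7273 and 8812 bp away and was at 0.339 and 0.106 CPM, then 1.1, 7.69 and 2.26, and had no count in the 4 HPC libraries. It was at least 37.9-fold lower in HPCs than in mesoderm (adjusted p = 0.00439). T, or Brachyury, was at 0.14 and 0.0532 CPM in undifferentiated mESCs and 0.235, 2.62 and 0.404 in mesoderm, with no count in HPCs, and clone C6.1 carried most of its mesoderm level. Its calls (adjusted p = 0.0458 and 0.0388) were near the threshold: the rise was lost without the mesoderm library C8.1 or either undifferentiated library, and the fall without the mesoderm library C8.1 or any HPC library but B9.3 (adjusted p = 0.0502 to 0.0757). Snai1, the repressor of epithelial genes, had 6 sites and was at 1.25, 2.62 and 1.7 CPM in mesoderm against 0.199 and 0.173 before, and was at least 19.1-fold lower in HPCs (adjusted p = 0.000564). Wnt3 was at least 40.4-fold lower in HPCs (adjusted p = 0.00109), and its rise was also lost without the mesoderm library C8.1. Nodal, the exception, fell from 2.29 and 2.31 CPM in undifferentiated mESCs to 0.549, 0.164 and 0.323 in mesoderm (log2 fold change -2.6 ± 0.46, adjusted p = 0.00429).

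Cardiac and lateral plate genes had the most sites per gene of the mesodermal lists, with 112 sites at 19 of the 22 genes. Of 12 tested, 11 were higher in mesoderm and 0 lower (median log2 fold change 5.85), against 10.7% and 13.7% of all genes. In HPCs 10 were lower and 0 higher, against 12.5% and 10.8%. Genes with hardly a count at the other stages, such as Foxf1 and Bmp5, passed the filter on low counts through mesoderm alone. Their directions thus follow from the filter. Hand1, with 12 sites, was at 0.0221 and 0.0133 CPM in undifferentiated mESCs, 3.06, 12.9 and 9.45 in mesoderm, and 1.85, 0.0, 0.0 and 0.0 in HPCs. The HPC value came from clone B9.3. The log2 fold change was 8.5 ± 1.27 (adjusted p = 0.000817) and then -4.03 ± 0.87 (adjusted p = 0.00505, and 0.0642 with DESeq2, which did not call it). Gata4 (8 sites) rose by 5.53 and fell by 4.45 on the log2 scale, and Gata6 (4 sites) rose by 7.33 and fell by 3.6, both factors that bind the GATA letters counted above. Bmp2, a ligand with 15 sites, was at 0.0295 and 0.0266 CPM, then 1.96, 1.47 and 1.61, then 0.231, 0.172, 0.531 and 0.449 (adjusted p = 6.29e-05 and 0.00211). Bmp5 and the forkhead gene Foxf1 had no count in undifferentiated mESCs, and were at least 414-fold and 221-fold higher in mesoderm (adjusted p = 0.000221 and 0.00123). Bmp2 was not tested where the mesoderm library B9.3 or C8.1 was left out, nor Foxf1 where C6.1 or C8.1 was. Tbx3 rose from 0.834 and 0.492 CPM to 10.3, 32.3 and 18.7, and a count remained in 1 HPC library alone (adjusted p = 1.55e-05).

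Exceptions in this list were Tbx20 and Mef2c at the HPC step. Tbx20 was at 22.0, 29.8 and 33.4 CPM in mesoderm, and at 19.2 in the HPC library B9.3 but 0.862, 0.531 and 0.561 in the others (adjusted p = 0.0693, and 1.26e-06 without that library). Mef2c, with 15 sites, was at 19.6 CPM in mesoderm clone B9.3 and at 0.164 and 1.13 in the other 2, and at 30.2, 21.5, 25.5 and 60.0 in HPCs (adjusted p = 0.0838, and 5.82e-05 without the mesoderm library B9.3). Isl1 had 27 sites, the most of the list, but at 0.157 to 0.404 CPM in mesoderm it was too low to be tested.

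Signalling genes carried the most sites of the lists, 237 at 37 of 44 genes, and all 37 were tested. In mesoderm 19 were higher and 5 lower, against 10.7% and 13.7% of all genes. In HPCs 26 were lower and 0 higher, against 12.5% and 10.8% (median log2 fold change -2.41, against -0.01 over all genes). Among Wnt genes, Lef1, a nuclear effector with 7 sites, went from 4.24 and 6.46 CPM to 8.23, 30.9 and 24.8 and then to 0.0, 0.0, 0.266 and 0.0 (adjusted p = 0.0152 and 2.71e-05). Its rise was lost without either undifferentiated library (adjusted p = 0.0809 and 0.157) and with all 23 libraries in 1 fit (0.124). Axin2, a feedback inhibitor with 15 sites, was at 2.35 CPM in mesoderm clone B9.3, near the undifferentiated 2.12 and 1.69, and at 14.7 and 12.9 in the other clones, and fell to 0.579, 0.517, 0.0 and 0.224. Its rise was called (adjusted p = 0.0183), though not without mesoderm clone C8.1 or either undifferentiated library. The ligands Wnt5a (12 sites) and Wnt5b (6 sites) rose by 5.91 and 3.53 and fell by 2.17 and 4.08 on the log2 scale.

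In the BMP pathway, Smad6, an inhibitor with 9 sites, was at 1.86 and 1.53 CPM, then 9.33, 22.8 and 34.0, then 4.74, 7.24, 5.31 and 3.81 (adjusted p = 0.000442 and 0.00177). Its target Id3 was at 2.98, 3.11 and 2.66 CPM in mesoderm against 0.339 and 0.306 before and 1 HPC library with a count after (adjusted p = 0.000362 and 4.54e-05). The ligand Bmp7 rose by 3.99 (adjusted p = 0.000853), and the receptor Acvr2a, with 27 sites, fell into HPCs by 1.28 (adjusted p = 0.013, and 0.0551 with all 23 libraries in 1 fit). The feedback inhibitors of FGF signalling went another way. Spry2 and Spry4 were lower in mesoderm than in undifferentiated mESCs (log2 fold change -1.65 ± 0.26, adjusted p = 0.00105, and -2.41 ± 0.5, adjusted p = 0.00513) and fell again into HPCs. The first fall of Spry4 was lost without 1 of the undifferentiated libraries (adjusted p = 0.0684). Dusp6 was at 6.59 and 7.54 CPM in undifferentiated mESCs and 5.72, 2.29 and 2.02 in mesoderm, which was not called (adjusted p = 0.135, and 0.0177 without mesoderm clone B9.3), and at 0.579, 2.07, 0.266 and 0.785 in HPCs (adjusted p = 0.0173, and 0.0807 without that clone).

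Most endothelial genes tested rose into mesoderm, and some rose and others fell into HPCs. Of 38, 24 were nearest to 118 sites and 20 were tested. In mesoderm 16 were higher and 0 lower, against 10.7% and 13.7% of all genes. In HPCs 3 were higher and 9 lower, against 10.8% and 12.5%. Kdr, the marker of the sort, had 10 sites 30093 to 89104 bp from its start and was at 0.125 and 0.146 CPM, then 51.1, 36.2 and 22.7, then 15, 6.72, 3.72 and 9.98. The log2 fold changes were 8.05 ± 0.69 (adjusted p = 5.85e-05) and -2.04 ± 0.39 (adjusted p = 0.00265). Since Kdr encodes the protein used to sort, its mesoderm level follows from the gate. Tal1 and Lmo2, partners in the complex that starts blood development, rose at both steps. Tal1, with 1 site, was at 0.184 and 0.133 CPM, 3.37, 4.26 and 3.55, and 13.9, 13.1, 13.8 and 15.9 (adjusted p = 1.77e-05 and 5.97e-05), and Lmo2 was at 0.0811 and 0.0266, then 1.65, 1.31 and 1.29, then 9.03, 5.52, 5.45 and 7.85. Fli1, an ETS factor, rose into mesoderm (42.7, 4.26 and 17.5 CPM against 0.0221 and 0.0133, adjusted p = 0.000207) and was at 76.7, 44.0, 55.8 and 117.0 in HPCs (adjusted p = 0.0408, and 0.0583 with the clone as a block). The HPC call was also lost without the HPC or mesoderm library of clone C6.1 or C8.1 or either undifferentiated library (adjusted p = 0.0565 to 0.131).

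Clone B9.3 had the highest mesoderm value of several endothelial genes. Cdh5, the endothelial cadherin with 12 sites, was at 37.1 CPM there and at 0.491 and 3.47 in the other clones, and its fall into HPCs (1.16, 3.28, 1.2 and 0.897) had an adjusted p of 0.031, and 0.584 without that library. That call was also lost without any HPC library but B9.3-2 (adjusted p = 0.05 to 0.0834). Tek, the angiopoietin receptor, was at 28.2, 0.819 and 2.99 CPM, and its rise (adjusted p = 0.0352) was lost without it (adjusted p = 0.271) and without either undifferentiated library (0.163 and 0.224). Mecom, with 14 sites, was at 37.9, 1.96 and 9.61 CPM against 4.49 and 2.86, which was not called (adjusted p = 0.116), and fell into HPCs (adjusted p = 0.00658). Nrp1, a VEGF co-receptor, was at 34.3, 33.2 and 34.9 CPM in mesoderm and 33.2, 1.72, 1.06 and 2.13 in HPCs (adjusted p = 0.144, and 1.77e-06 without the HPC library B9.3).

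Of the hematopoietic regulators that could be tested, 16 of 24 were higher in mesoderm and 10 higher in HPCs, against 10.7% and 10.8% of all genes. The mesoderm calls of Gata1, Meis1 and Cbfb among the 16 were lost without either undifferentiated library. That of Gata1 rested on 2 counts, at 0.0784 CPM in mesoderm clone B9.3 and 0.0807 in C8.1. It was also lost without the mesoderm library of either clone (adjusted p = 0.0872 and 0.0899). Gata1 passed the filter on low counts through HPCs alone, so its level in mesoderm is hardly measured. The list has 32 genes, of which 26 were nearest to 119 sites. In mesoderm 0 were lower (13.7% of all genes) and 8 not called, and in HPCs 3 were lower (12.5% of all genes) and 11 not called (median log2 fold change 1.22). Runx1 had 10 sites and was at 1.21 and 0.811 CPM in undifferentiated mESCs, 5.41, 17.0 and 20.8 in mesoderm, and 125.0, 101.0, 117.0 and 182.0 in HPCs. The groups did not overlap, with log2 fold changes of 3.82 ± 0.54 (adjusted p = 0.000577) and 3.19 ± 0.43 (adjusted p = 0.000256). Cbfa2t3, a corepressor of the ETO family with 1 site 20271 bp away, was at 0.133 and 0.173, then 4.94, 4.58 and 4.52, then 32.1, 30.5, 23.9 and 33.0 CPM. Zfpm1, the GATA1 partner FOG1, had 4 sites and rose by 3.8 and by 1.65 on the log2 scale. Gata1 had no count in undifferentiated mESCs or in mesoderm clone C6.1, and was at 4.51, 3.97, 4.78 and 5.83 CPM in HPCs (adjusted p = 2.17e-05, against 2 counts over the mesoderm libraries). Meis1, with 7 sites, rose into HPCs (adjusted p = 0.0083), while its mesoderm call lay at the threshold and rested on clone B9.3 (15.8, 1.15 and 1.94 CPM against 1.17 and 1.01, adjusted p = 0.0497, and 0.491 without it). Those that fell into HPCs included Cbfb, the partner of RUNX proteins (11.2, 9.0 and 8.88 CPM, then 4.4, 2.59, 3.59 and 5.49, adjusted p = 0.00299), and Gata3, at least 25.6-fold lower (adjusted p = 0.0014).

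Adhesion genes of the epithelial to mesenchymal transition moved in opposite directions in mesoderm. Of 18, 17 were nearest to 96 sites and 14 were tested. In mesoderm 9 were higher and 2 lower, against 10.7% and 13.7% of all genes. In HPCs 3 were higher and 7 lower, against 10.8% and 12.5%. Cdh1, the epithelial cadherin, fell from 15.1 and 17.3 CPM to 0.157, 0.164 and 0.888 (log2 fold change -5.19 ± 0.49, adjusted p = 9.46e-05), and Epcam fell from 4.32 and 5.57 to 0.0, 0.327 and 0.161 (adjusted p = 0.0007). Cdh2, the neural cadherin with 8 sites, rose from 4.04 and 3.72 CPM to 41.9, 35.0 and 29.9 and fell to 6.94, 1.55, 0.399 and 0.336 (adjusted p = 0.0125 and 0.0013). The rise of Cdh2 was lost without either undifferentiated library (adjusted p = 0.115 and 0.128) and with all 23 libraries in 1 fit (0.0507). Cdh11, a mesenchymal cadherin with 28 sites, rose from 0.059 and 0.093 CPM to 11.1, 34.1 and 33.0, and HPCs held 6.25 in library B9.3 and 0.172, 0.266 and 0.112 in the others (adjusted p = 0.00123 and 0.00593). Of the repressors Zeb1 and Zeb2, both rose into mesoderm, and Zeb2 rose again into HPCs (24.5, 25.7 and 24.6 CPM, then 107.0, 66.0, 91.1 and 138.0, adjusted p = 0.000176). The integrin Itgb3, a megakaryocyte partner of CD41 with 1 site, was at 0.354 and 0.279 CPM in undifferentiated mESCs and 0.314, 0.0 and 0.807 in mesoderm, and rose to 153.0, 59.6, 70.2 and 151.0 in HPCs (adjusted p = 1.55e-05).

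Pluripotency genes with sites were mostly lower in mesoderm than in undifferentiated mESCs. Of 23, 12 were nearest to 75 sites and all 12 were tested. In mesoderm 1 was higher and 7 lower, against 10.7% and 13.7% of all genes (median log2 fold change -4.82). In HPCs 5 were lower, against 12.5%. Esrrb, a nuclear receptor of naive pluripotency with 11 sites, fell from 22.2 and 20.9 CPM to 0.47, 0.0 and 0.323 (log2 fold change -6.09 ± 0.47, adjusted p = 0.000133), and its later fall into HPCs was lost without the mesoderm library B9.3 or C8.1 (adjusted p = 0.0595 and 0.058). Klf5 (12 sites) and Nr5a2 (16 sites) fell by 4.31 and 5.51. Sall4 and Lin28a, which are also known from early mesoderm, fell later. Sall4 was at 43.2 and 45.7, then 14.1, 46.0 and 29.1 CPM (adjusted p = 0.273), and at 0.231, 0.517, 0.133 and 0.336 in HPCs (log2 fold change -6.64 ± 0.48, adjusted p = 1.45e-05). Lists of other lineages were little expressed: 80 sites were nearest to 19 of 20 paraxial and intermediate mesoderm genes, of which 5 were tested (1 higher and 2 lower in mesoderm), and 44 sites to 11 of 19 neural and endoderm genes, of which 4 were tested (1 higher and 2 lower).

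Genes with very many sites were of several kinds. Atg7 had 44, of which 40 were copied sequence. Flrt3, an adhesion protein of early mesoderm, had 41 sites 11586 to 1057680 bp away. It was at 0.28 and 0.253 CPM, then 3.92, 0.819 and 0.807, then 1.04, 0.0, 0.133 and 0.0, and its rise (adjusted p = 0.0283) was lost without mesoderm clone B9.3 (adjusted p = 0.174), without either undifferentiated library and with DESeq2. Its fall was not called (adjusted p = 0.0528, and 0.00456 without the HPC library B9.3). The ephrin ligands Efnb2 (30 sites) and Efna5 (32 sites) fell into HPCs: Efnb2 from 9.56, 9.99 and 7.1 CPM to 1.97, 1.03, 0.664 and 0.785 (adjusted p = 7.57e-05), Efna5 from 14.8, 22.1 and 23.5 to 12.0, 1.72, 3.32 and 3.25 (adjusted p = 0.0115). Klf12 (26 sites) and the adhesion receptor Adgrl2 (34 sites) were not called between undifferentiated mESCs and mesoderm (log2 fold change 0.24 ± 0.29 and 0.14 ± 0.37) and fell into HPCs by 2.35 and 1.81. Jag1, a Notch ligand with 25 sites, was called at neither step (-0.38 ± 0.72 and -1.87 ± 0.76). Hunk, beside the run of 11 sites, was at 12.4 and 12.8, then 7.76, 19.6 and 20.1 CPM, and fell to 6.94, 1.9, 3.06 and 1.35 (adjusted p = 0.00486), and Irf2bpl, beside 10, fell by 2.77 (adjusted p = 0.00832).

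Sites were not limited to genes that fell in HPCs. Called higher in HPCs than in mesoderm, with 3 or more sites and no overlap of libraries, were 310 of the 2515 genes tested with 3 or more sites (12.3%, against 10.3% of all genes). Nmnat3, an NAD synthesis enzyme with 3 sites, was at 0.0885 and 0.159, then 0.157, 0.164 and 0.0807, then 20.6, 22.2, 30.4 and 28.4 CPM (log2 fold change into HPCs 7.58 ± 0.39, adjusted p = 2.92e-06). Smox, a spermine oxidase, rose from 0.549, 0.164 and 0.323 CPM to 17.0, 24.1, 22.6 and 24.3 (adjusted p = 3.59e-06), and the kinase Prkca from 2.9, 5.4 and 8.07 to 299.0, 159.0, 268.0 and 395.0 (adjusted p = 1.52e-05). Thbs1, a platelet matrix protein with 4 sites, fell into mesoderm (15.4 and 11.2 CPM, then 0.549, 0.164 and 0.404) and rose to 341.0, 91.5, 78.8 and 280.0 in HPCs (adjusted p = 0.000628 and 1.84e-05). Lower in mesoderm than in undifferentiated mESCs by the same criteria were 338 (13.4%, against 13.7% of all genes). Tfcp2l1, a naive pluripotency factor with 8 sites, fell from 27.1 and 24.3 CPM to 0.549, 0.164 and 0.242 (log2 fold change -6.19 ± 0.42), and Zfp42 and the long noncoding RNA Lncenc1 fell by 6.07 and 7.02 (adjusted p = 1.77e-05 each).

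In the topologically associating domain of Runx1 on chromosome 16, 27 of 45 mesoderm peaks were mesoderm-only distal sites without CTCF. Of these, 10 were nearest to Runx1, 4 inside the gene and 6 upstream of its distal start, from 30978 to 245831 bp away. The rule counts the distal start of Runx1 alone: the site at chr16:92698059-92698142 lies 527 bp from an internal transcript start of GENCODE vM1, at the proximal promoter, and so is distal by the rule but not by that annotation. The gene desert beyond held others, with 9 nearest to 1810053B23Rik, which had no count in any wild-type library. Of these, chr16:93129852-93130048, chr16:93147824-93148052 and chr16:93153416-93153690 lie in enhancers of Runx1 listed by the paper. It reports that their contacts with the proximal promoter increased in mesoderm. Sites nearest to Runx1 at chr16:92778301-92778745, chr16:92996476-92996601 and chr16:93006973-93007084 overlap further enhancers of that list. Clic6, with 3 of its 4 sites in the domain, was at 0.103 and 0.106, then 0.235, 0.982 and 1.13 CPM, and a count remained in 1 HPC library (adjusted p = 0.00779 and 0.00936). Its rise was lost without either undifferentiated library (adjusted p = 0.132 and 0.136), and it was not tested where 1 mesoderm library was left out. The Runx1 window printed above lies 40984 bp inside the gene from its distal start, and it holds T-box and GATA letters.

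Of the nearest genes, 3 were lower in mesoderm of P2-CTCF-KO clones than in wild-type mesoderm. In 9 mesoderm libraries, 8778 genes were tested. Of the 4219 nearest genes among them, 3 were lower in P2-CTCF-KO than in wild-type mesoderm (0.0711%, against 0.0342% of all genes), and 0 were higher (0.0% of all genes). Those 3 were also the only genes called of all tested. Cbfa2t3 was at 0.253, 0.34 and 0.484 CPM in P2-CTCF-KO and 2.62, 2.46 and 2.38 in wild-type mesoderm (log2 fold change -2.78 ± 0.31, adjusted p = 0.0224), and at 2.12, 1.32 and 2.01 in P1-CTCF-KO. Ikzf2, an Ikaros family factor with 8 sites, was at 0.709, 0.612 and 0.376 against 3.16, 2.46 and 4.09 (-2.52 ± 0.31, adjusted p = 0.0264). Prkar2b, a regulatory subunit of protein kinase A with 3 sites, was at 0.557, 0.544 and 0.968 against 3.87, 2.2 and 4.09 (-2.3 ± 0.31, adjusted p = 0.0371). The groups did not overlap for any of the 3, and for Prkar2b the difference of the later step was not called (adjusted p = 0.297). The count was 88 without the wild-type clone C6.1, 7 without B9.3, 2 without the P1-CTCF-KO clone E7.2 and 0 without any other of the 9 libraries. DESeq2 called 127 nearest genes lower and 19 higher. For these other fits, the shares of all genes were not computed. At an unadjusted p under 0.05, 871 nearest genes differed (20.6%, against 16.0% of all genes).

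In P1-CTCF-KO mesoderm, edgeR called 0 nearest genes in either direction (0.0% of all genes in each), and DESeq2 likewise called 0. At an unadjusted p under 0.05 in edgeR's test were 78 nearest genes (1.85%, against 1.91% of all genes). The step from mesoderm to HPCs, fitted over 21 libraries and 9170 genes, was also read in the clones that the wild-type fit does not hold. In P1-CTCF-KO, 20.2% of nearest genes were higher in HPCs (16.6% of all genes) and 19.6% lower (16.1%), and in P2-CTCF-KO 20.9% were higher (16.5%) and 14.4% lower (11.7%). The difference of this step from that in wild-type cells was called for 2 nearest genes in P2-CTCF-KO, both higher (0.0452%, against 0.0218% of all genes), and 0 lower (0.0%). In P1-CTCF-KO it was called for 0 in either direction (0.0% each). There, 143 nearest genes were at an unadjusted p under 0.05 (3.23%, against 3.34% of all genes). DESeq2 called 30 nearest genes higher and 1 lower in P2-CTCF-KO, and its share of all genes was not computed. The 2 were Cbfa2t3 (difference 2.64 ± 0.34, adjusted p = 0.00214) and Ikzf2 (2.54 ± 0.38, adjusted p = 0.00789). In HPCs, on the scale of that fit, Cbfa2t3 was at 20.7, 14.5, 13.0, 17.6 and 17.3 CPM in P2-CTCF-KO and 19.5, 19.4, 14.8 and 20.3 in wild-type cells, so the libraries overlapped at day 7. Ikzf2 was at 14.3, 13.8, 11.6, 7.57 and 8.77 in the order D10.1, D10.1-2, D2.1, D2.1-2 and E9.1, and wild-type libraries lay between 9.41 and 13.8, which overlapped as well. Several endothelial genes near sites, such as Cdh5 (log2 fold change -5.98 ± 1.76) and Tek (-6.18 ± 1.6), had negative estimates in P2-CTCF-KO mesoderm but were not called (adjusted p = 0.16 and 0.138), and their wild-type level rested on clone B9.3.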

How the data were processed

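The deposited peak files hold the positions of peaks alone, which the authors called with MACS2 on reads aligned to mm9, on merged libraries of ATAC-seq fragments under 100 bp and against input for CTCF. The authors made the gene counts with STAR and featureCounts over exons and introns after removing duplicates. All 23 count columns were used and 0 left out.

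Sites were found in Python 3.11.15 (overlap of 1 bp, distance limit 5 kb from the starts of gene entries at a single locus in the count table). The overlap step was cross-checked with bedtools 2.31.1. Sequences were read from NCBIM37, indexed with samtools 1.23.1, and searched for 20 motif patterns on both strands in windows of 200 bp and in flanks 2 kb away. A site went to the gene with the nearest start. Counts were tested with edgeR 4.0.16 in R 4.3.3 (quasi-likelihood, TMM scaling, filterByExpr with a minimum count of 10, adjusted p under 0.05 and log2 fold change beyond 1) over the whole table, in fits of the 9 wild-type, the 9 mesoderm and the 21 mesoderm and HPC libraries, and the code was tested on simulated data. CPM are on the scale of each fit, and SE are those of the log2 fold change. Motif intervals cover counting error at a confidence level of 0.95, as does the limit of 3 counts. Depth was 878966 to 7748567 counts per library outside ribosomal and multi-locus entries.

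The members and gene lists were chosen with earlier results of these data known. Genes are named by a fixed rule: those with the most sites or site runs, those called at both steps or at 1 step with the smallest adjusted p and 3 or more sites, members of 9 lists, genes of the Runx1 domain, and genes called between genotypes. The runs of single-copy sites were added after the values were seen. Mesoderm and HPC libraries of the same number come from the same clone by their labels, although deviations of same-clone libraries correlated at -0.24 to 0.25 over 1067 genes. A fit with the clone as a block was an alternative, beside DESeq2 1.42.0, other scaling, filters, distances, peak widths and windows, and leaving out each library. No label says that the libraries of a clone are separate cultures, so p-values measure the spread between these libraries.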

Additional observations from a re-analysis of the deposited data

Results flagged for a closer look

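In HPCs, 22 of 93 named genes had 1 library far from the other 3 by Dixon's ratio of its gap to the range. Chance gives this in about 1 of 20 groups of normally distributed values, which low counts are not. Where 1 library alone has a count, as for Evx1, Tbx3 and Id3, the ratio is 1.0 whatever that count. That rate therefore does not apply to the 22 genes. The library B9.3 stood apart for 13 of them, all on the high side, with Nrp1 at 33.2 CPM, Tbx20 at 19.2, Efna5 at 12.0, Vim at 8.22, Tek at 8.1, Cdh11 at 6.25, Hand1 at 1.85, Gata6 at 1.62, Flrt3 at 1.04, Bmp5 at 0.694, Foxf1 at 0.463, Bmp7 at 0.231 and Evx1 at 0.116. The library C6.1 stood apart for 5 genes, with Lef1 at 0.266 CPM and Zfp703, Tbx3, Id3 and Clic6 at 0.133 each, the library B9.3-2 for Cdh5 at 3.28, Spry4 at 0.517 and Nr5a2 at 0.172, and the library C8.1 for Zfp42 at 0.112. In HPC libraries 1 count is worth 0.112 to 0.172 CPM, so the values at that level rest on 1 count. The second HPC library of clone B9.3 did not share the high values. The step from mesoderm to HPCs differed between P2-CTCF-KO and wild-type cells for Cbfa2t3 by 2.64 and for Ikzf2 by 2.54 on the log2 scale, by the interaction term of edgeR's fit (adjusted p = 0.00214 and 0.00789).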

How the results depend on the processing

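No called value changed sign, but the uncalled estimates of 6 named genes did when 1 library was left out: at the HPC step Tek (-1.38, up to 1.0) and Flt1 (-0.24, up to 0.57), and at the mesoderm step Itgb3 (0.43, down to -0.61), Adgrl2 (0.14, down to -0.18), Klf12 (0.24, down to -0.03) and Nmnat3 (0.11, down to -0.29), as log2 fold changes. The balance of all calls at the mesoderm step went from 44.0% higher to 57.9% with DESeq2. Peaks wider than the median left 14699 sites. Genes nearest to 5 or more sites were called higher in mesoderm in 25.8% and lower in HPCs in 28.3%. DESeq2 called 8.56% of nearest genes lower in mesoderm, and in P2-CTCF-KO mesoderm 0.534% higher and 3.57% lower. Its difference between steps in P2-CTCF-KO was called higher for 0.656% and lower for 0.0219%, and that of edgeR higher for 0.0253% with GENCODE starts and 0.0928% at 5 or more sites. Without the filter on low counts, which tests more genes, P2-CTCF-KO mesoderm had 0.81% higher and 3.69% lower, and the HPC step 11.1% higher and 11.7% lower in P1-CTCF-KO and 10.8% higher in P2-CTCF-KO. In windows of 100 bp and in the peaks as called, 11 of the 20 motif patterns were at least 1.5 times as frequent as in flanks, against 7. Fewer sites and more genes tested follow from the width and filter settings; for the others, the cause was not tested.

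With 1 library left out, 5.53 to 18.0% of nearest genes were higher and 4.64 to 14.8% lower in mesoderm, and 11.4 to 13.6% higher and 14.6 to 20.4% lower in HPCs. The lowest mesoderm values were those without an undifferentiated library. P2-CTCF-KO mesoderm had 0.0 to 0.494% higher and 0.0 to 1.97% lower, P1-CTCF-KO mesoderm 0.0% in each direction. The HPC step gave 18.3 to 20.6% and 13.7 to 22.1% in P1-CTCF-KO and 16.8 to 21.4% and 12.2 to 20.3% in P2-CTCF-KO. The difference of that step was called higher for 0.0216 to 0.091% in P2-CTCF-KO. With the clone as a replicate block, 15.4% of nearest genes were higher and 17.3% lower in wild-type HPCs, 19.6% and 17.9% in P1-CTCF-KO and 20.0% and 14% in P2-CTCF-KO, and of the named genes the block changed the call of Fli1 alone. The shares of all genes under these alternatives were not computed, so these values do not show whether nearest genes were called more often than others. Among named genes, leaving out a library kept 1549 values on their side of the threshold, ended 83 calls and added 14, and DESeq2 kept 180 and ended 2. Depth limits the HPC values most, where 1 count is worth 0.112 to 0.172 CPM.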
